A study of Homo sapiens with 6 samples.

Results

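10 keratin genes, KRT5, KRT7, KRT8, KRT14, KRT17, KRT18, KRT19, KRT80, KRT81 and KRT86, were followed by their symbols among the 63241 genes measured in T24 cells. T24 is an established human bladder cancer line, and the study asked how USP43, a deubiquitinating enzyme, acts on lipid metabolism in such cells. One group of 3 RNA sequencing libraries came from cells transfected with a control small interfering RNA (siNC, genotype labelled WT). The other 3 came from cells given one against USP43 (siUSP43, genotype labelled USP43 knockdown), in the same medium and under the same batch label. Nothing in the labels says that the numbered libraries were separate cultures, or that all siUSP43 libraries received 1 duplex, so the p-values reflect no more than the scatter among 3 libraries a group, part or all of which could be technical. Levels are RNA only, and in bulk samples fewer cells that make a keratin cannot be told apart from less RNA per cell.

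Keratins are the intermediate filament proteins of epithelial cells. Each filament is built from obligate pairs of an acidic type I keratin (here KRT14, KRT17, KRT18 and KRT19) and a basic type II keratin (here KRT5, KRT7, KRT8, KRT80, KRT81 and KRT86). In the urothelium KRT5 and KRT14 are known from basal cells, while KRT7, KRT8, KRT18 and KRT19 are simple epithelial keratins made through most of the layers. KRT81 and KRT86 are hair-type keratins, neighbours on chromosome 12 and close paralogs.

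How alike the paralogs are bears on every value given for them. Their coding sequences were compared in the transcripts of GENCODE release 29, on GRCh38. Over 1454 aligned coding bases the pair differed at 85 and was 94.2% identical, and the longest stretch without a difference was 605 bases. The 3′ untranslated regions were 74.3% identical over 334 aligned bases. Of the other 44 pairs among the 10 genes, the closest was KRT14 with KRT17, at 86.4% of coding bases, and the farthest KRT17 with KRT86, at 62.2%.

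Sequence shared with other annotated genes differed widely among the 10. Of all 100-base stretches in the KRT81 mRNA, 30.3% also stood in a transcript of another gene, nearly all of them in KRT86 (29.4%). The reverse share for KRT86 was 28.3%, with 27.0% in KRT81. KRT19 and KRT80 shared no 100-base stretch with any other gene, and 1.79% and 0.42% of their 50-base stretches. For KRT8 the share was 39.7% at 50 bases and 7.25% at 100, most often with its pseudogene KRT8P3 (23.2% and 4.29%), and for KRT18 52.5% and 18.4%. The 100-base stretches of KRT18 were shared with KRT8, whose longer transcripts run through KRT18 on the opposite strand for 525 exonic bases. KRT7 shared 7.67% of 100-base stretches, with KRT7-AS on the opposite strand. Since neither read length nor the use of strand is given in the sources used here, reads from these stretches may have been divided between genes or left uncounted.

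**Figure D1:**
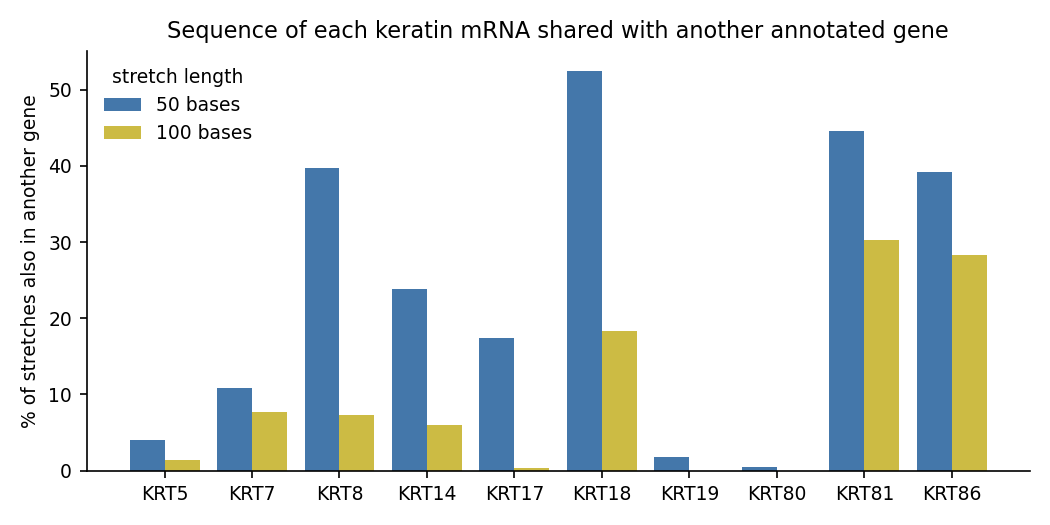
Percent of all 50-base (blue) and 100-base (yellow) stretches of each keratin mRNA that also occur, on either strand, in a GENCODE release 29 transcript of another gene. KRT81 and KRT86 keep about 30.3 and 28.3% at 100 bases, while KRT19 and KRT80 share none.

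Library totals ran from 21430574 to 25577200 gene counts, and the 10 keratins together took 0.254 to 0.284% of them. USP43 was lower in the siUSP43 libraries, at 1.02, 0.67 and 0.80 FPKM (fragments scaled by exonic size and by a deposited library size other than these gene counts) against 2.36, 2.09 and 2.08 in siNC (log2 fold change -1.40, SE 0.14, edgeR Benjamini-Hochberg adjusted p = 5.63e-06). Its mean was 2.18 FPKM in siNC and 0.83 in siUSP43, so it reached the mean of 1 FPKM set for testing only through siNC. Of 8 epithelial markers, 5 had a mean of at least 1 FPKM (KRT7, KRT8, KRT18, KRT19 and CLDN4), and the sum over all 8 ran from 525.7 to 542.5 FPKM in siNC and from 467 to 531 in siUSP43. The keratins among them are members followed here and hold nearly all of that sum, so they are no independent check of the cell label. CLDN4 averaged 1.12 FPKM in siNC and 0.937 in siUSP43, and CLDN7 0.657 and 0.357. CDH1, the E-cadherin gene, stood at 0.00 to 0.02 FPKM in every library, and EPCAM at 0.48 to 0.73 in siNC and 1.18 to 1.30 in siUSP43. None of the 8 fibroblast, 8 leukocyte or 8 endothelial markers reached a mean of 1 FPKM. Their sums were 1.21 to 1.61, 1.04 to 1.2 and 0.17 to 0.28 FPKM in siNC, and 1.22 to 1.29, 0.57 to 0.71 and 0.13 to 0.21 in siUSP43. CD3E and TYROBP were listed at 0 throughout, and CD14 averaged 0.953 FPKM in siNC and 0.467 in siUSP43. All libraries are labelled as T24 cells, and whether any other cell type added to the keratin values was not tested.

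Keratins of the simple epithelium made up most of the keratin RNA in T24 cells. KRT7 gave 40.1% of the reads counted on the 10 genes in siNC, KRT18 25.8% and KRT8 25.7%, followed by KRT80 with 6.96% and KRT19 with 1.19%. KRT5 and KRT14 were at or near 0. KRT5, the basal type II keratin (ENSG00000186081, chromosome 12, 52514575 to 52520530, minus strand, in GRCh38 as for all genes here), had 0 counts in all 6 libraries, which allows up to 3 counts per library, or 0.117 to 0.14 CPM (counts scaled to the library total), by counting error alone. Its type I partner KRT14 (ENSG00000186847, chromosome 17, 41582279 to 41586895) had 1, 0 and 2 counts in siNC and 0 in each siUSP43 library, so no fold is given (exact two-sided permutation of FPKM, p = 0.4). KRT17, a type I keratin known from basal and wounded epithelium (ENSG00000128422, chromosome 17, 41619442 to 41624842), had 17, 12 and 31 counts in siNC and 7, 16 and 14 in siUSP43, and these ranges overlapped (exact two-sided permutation of FPKM, p = 0.5).

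**Figure D2:**
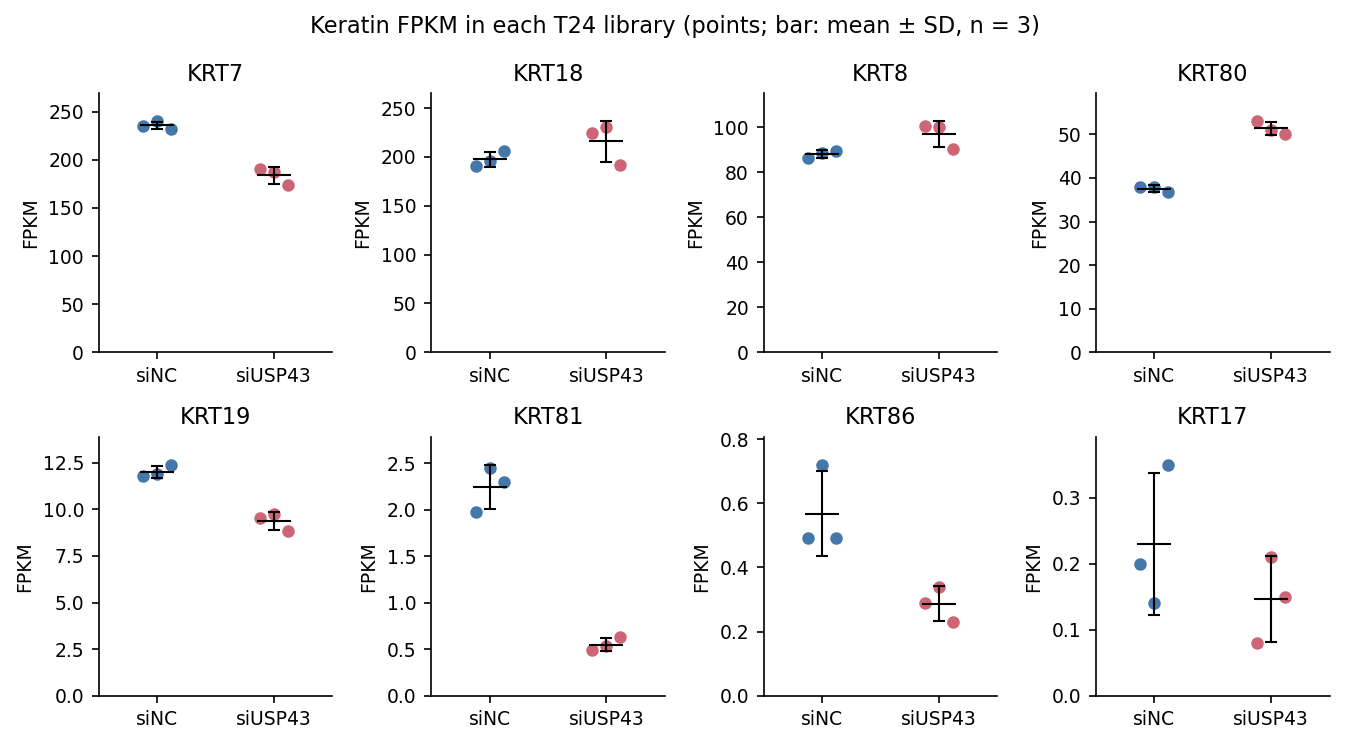
FPKM of 8 keratin genes in each library (points), with the mean and SD of 3 libraries per group (black bars) on axes that start at 0. KRT7, KRT19, KRT81 and KRT86 lie lower in all siUSP43 libraries. KRT80 and KRT8 lie higher, KRT8 only just in the third siUSP43 library, while KRT18 and KRT17 overlap between groups.

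Of the 10 keratins, 6 had a mean of at least 1 FPKM over the 6 libraries and were tested. Among them 3 fell (KRT7, KRT19 and KRT81), 1 rose (KRT80), and KRT8 and KRT18 did not pass (edgeR quasi-likelihood test, Benjamini-Hochberg adjusted over 11417 genes, threshold 0.05). Over all genes tested 28.0% rose and 28.1% fell, 56.1% in all, so 4 of 6 is near the background and says nothing particular about keratins. The groups did not overlap for 5 of the 6, against 62.2% of all genes tested. The median log2 fold change was -0.13, against -0.01 over all genes tested. KRT81 passed the filter through siNC, where it was high, so these figures are no support for a trend in the family.

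KRT7 (ENSG00000135480, chromosome 12, 52232520 to 52252186, plus strand), the type II keratin that with CK20 is read in pathology of urothelial tumours, was the most abundant in siNC. It stood at 234.92, 240.25 and 232.49 FPKM in siNC and at 190.44, 187.38 and 173.53 in siUSP43. All siUSP43 values lay below all siNC values, a fall to 0.77 of the control level (log2 fold change -0.38, SE 0.04, edgeR Benjamini-Hochberg adjusted p = 2.50e-05). The gene overlaps KRT7-AS on the other strand, which held 436, 469 and 491 counts in siNC and 496, 385 and 445 in siUSP43, 1.62 to 2.18% of the KRT7 counts. The part of the antisense gene in the KRT7 value was not tested.

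KRT8 and KRT18, the pair that forms the filaments of simple epithelia, shifted little. KRT18 (ENSG00000111057, chromosome 12, 52948871 to 52952906, plus strand) stood at 190.37, 196.26 and 205.87 FPKM in siNC and 224.07, 231.10 and 192.14 in siUSP43. The third siUSP43 library lay inside the siNC range and the others above it (log2 fold change 0.11, SE 0.07, edgeR Benjamini-Hochberg adjusted p = 0.169). KRT8 (ENSG00000170421, chromosome 12, 52897187 to 52949954, minus strand) stood at 86.17, 88.43 and 89.49 FPKM in siNC and 100.45, 99.98 and 90.36 in siUSP43. These ranges did not overlap, although the third siUSP43 library was only just above siNC (log2 fold change 0.12, SE 0.05, edgeR Benjamini-Hochberg adjusted p = 0.0518). Without siUSP43 replicate 3 both passed, KRT18 at 0.19 (edgeR Benjamini-Hochberg adjusted p = 0.00191) and KRT8 at 0.17 (edgeR Benjamini-Hochberg adjusted p = 0.00149). KRT8 also passed in 6 other alternatives of 14, with log2 fold changes of 0.13 and 0.14, so its call depends on the setting.

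The KRT8 to KRT18 balance stayed close to even in reads. KRT8 had 1.02, 1.01 and 0.975 counts per KRT18 count in siNC and 1.01, 0.97 and 1.05 in siUSP43, and the groups overlapped. On the FPKM scale the same ratio was 0.435 to 0.453 in siNC and 0.433 to 0.47 in siUSP43, because the deposited exonic size joins all transcripts of a gene and is 6881 bases for KRT8 and 3069 for KRT18. The principal mRNAs are 1755 and 1420 bases long, and per kilobase of those the ratio was 0.785 to 0.853 over the 6 libraries. Levels compared between keratins therefore depend on which length is used, while changes between groups do not. Pseudogene copies held few reads, with 115 to 145 counts per library on 23 of 51 KRT8 pseudogenes and 22 to 34 on 27 of 69 KRT18 pseudogenes. Copies with the most reads were KRT8P12, KRT8P3 and KRT8P33, with means of 54.5, 35.7 and 17.0 counts.

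KRT7 and KRT18 changed places as the most abundant keratin per length. KRT7 was at 1.23, 1.22 and 1.13 times the FPKM of KRT18 in siNC and at 0.85, 0.811 and 0.903 times in siUSP43. Per kilobase of the principal mRNA the ratios were 1.30, 1.29 and 1.19 in siNC and 0.897, 0.855 and 0.953 in siUSP43, so the order turned in each library on both scales. Ratios within a library do not depend on how libraries are scaled. KRT7 had 1.58, 1.58 and 1.51 counts per KRT8 count in siNC and between 1.09 and 1.116 in siUSP43, with all siUSP43 ratios below all siNC ratios. As a share of reads on the 10 keratins KRT7 went from 40.1% ± 0.786 to 31.8% ± 0.514 (SD, n = 3 each).

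**Figure D3:**
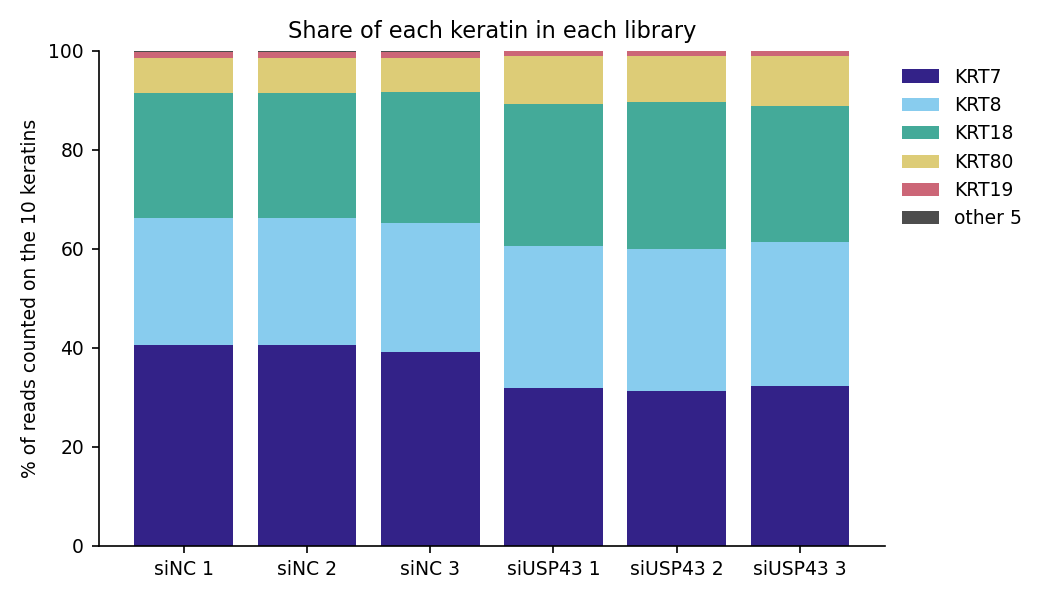
Share of each keratin in the reads counted on the 10 keratins, as stacked bars for the 6 libraries. The KRT7 part (dark blue) takes 39.2 to 40.6% in siNC and 31.3 to 32.3% in siUSP43, and the KRT80 part (yellow) 6.75 to 7.16% and 9.30 to 10.2%.

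KRT80 (ENSG00000167767, chromosome 12, 52168996 to 52192014, minus strand), a type II keratin found in many epithelia at cell edges, was the member that rose. It stood at 38.01, 38.00 and 36.71 FPKM in siNC and 53.03, 51.05 and 50.17 in siUSP43. The groups lay far apart beside their spread, a 1.35-fold rise (log2 fold change 0.44, SE 0.04, edgeR Benjamini-Hochberg adjusted p = 5.16e-06). Per KRT7 count it went from 0.174 ± 0.00236 to 0.306 ± 0.00921 (SD, n = 3 each). Its mRNA, with that of KRT19, shares the least sequence with other genes among the 10.

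KRT19 (ENSG00000171345, chromosome 17, 41523617 to 41528308, minus strand), a small type I keratin that lacks most of the tail domain, was at 11.80, 11.89 and 12.40 FPKM in siNC and 9.52, 9.78 and 8.82 in siUSP43. All siUSP43 values were lower, at 0.77 of the control level (log2 fold change -0.38, SE 0.07, edgeR Benjamini-Hochberg adjusted p = 4.29e-04). Against its fellow type I keratin KRT18 it went from 0.0464 ± 7.11e-04 to 0.0332 ± 0.00154 counts per count (SD, n = 3 each). KRT18 and KRT19 were the only type I members tested, and reads on type II genes per read on type I genes were 2.78, 2.76 and 2.58 in siNC and 2.37, 2.27 and 2.52 in siUSP43.

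KRT81 (ENSG00000205426, chromosome 12, 52285913 to 52291534, minus strand) changed most among the tested members, from a low level. It had 109, 138 and 130 counts in siNC and 28, 26 and 37 in siUSP43, or 1.98, 2.45 and 2.30 against 0.49, 0.53 and 0.63 FPKM. That was a fall to 0.244 of the control level (log2 fold change -2.04, SE 0.18, edgeR Benjamini-Hochberg adjusted p = 2.00e-06), and -1.06 when limma was run on log2(FPKM + 1), a scale that shrinks changes at these low levels. KRT86 (ENSG00000170442, chromosome 12, 52249300 to 52309163, plus strand), whose annotated span runs over KRT81 on the other strand, had 34, 51 and 35 counts in siNC and 21, 21 and 17 in siUSP43. That span also overlaps the far more abundant KRT7 on the same strand for 2887 bases, with 0 exonic bases in common. The part of KRT7 in the KRT86 value was not tested. KRT86 was below the filter. Its FPKM went from 0.567 ± 0.133 to 0.287 ± 0.0551 (SD, n = 3 each) without overlap, and p was 0.1 by exact permutation (two-sided), the smallest that 3 against 3 allows. In the fit without a filter its log2 fold change was -0.99 (SE 0.29, edgeR Benjamini-Hochberg adjusted p = 0.003). That fit gave KRT7 a far smaller edgeR Benjamini-Hochberg adjusted p than the main fit (4.97e-14 against 2.50e-05). Its p-values are therefore not on the footing of the main fit.

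Summing the paralogs takes away the question of how counted reads were divided between them. The sum does not correct for shared reads left uncounted or counted on both, or for stretches shared with genes outside the pair. Together KRT81 and KRT86 had 143, 189 and 165 counts in siNC and 49, 47 and 54 in siUSP43. The summed feature had a log2 fold change of -1.71 (SE 0.15, edgeR Benjamini-Hochberg adjusted p = 2.50e-06). KRT86 counts per KRT81 count were 0.312, 0.37 and 0.269 in siNC and 0.75, 0.808 and 0.459 in siUSP43. How far reads of one paralog were counted on the other was not tested.

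**Figure D4:**
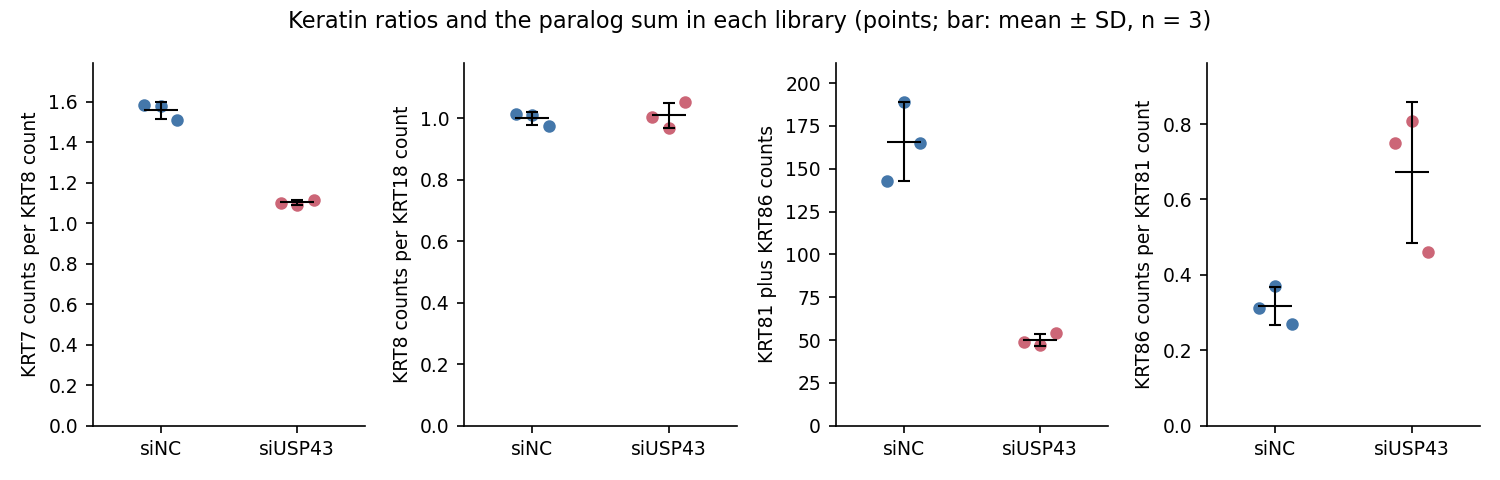
Per-library ratios of counts and the summed KRT81 and KRT86 counts (points), with the mean and SD of 3 libraries per group (black bars) on axes that start at 0. KRT7 per KRT8 is lower in all siUSP43 libraries, KRT8 per KRT18 overlaps near 1, and the paralog sum goes from 143 to 189 down to 47 to 54.

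**Figure D5:**
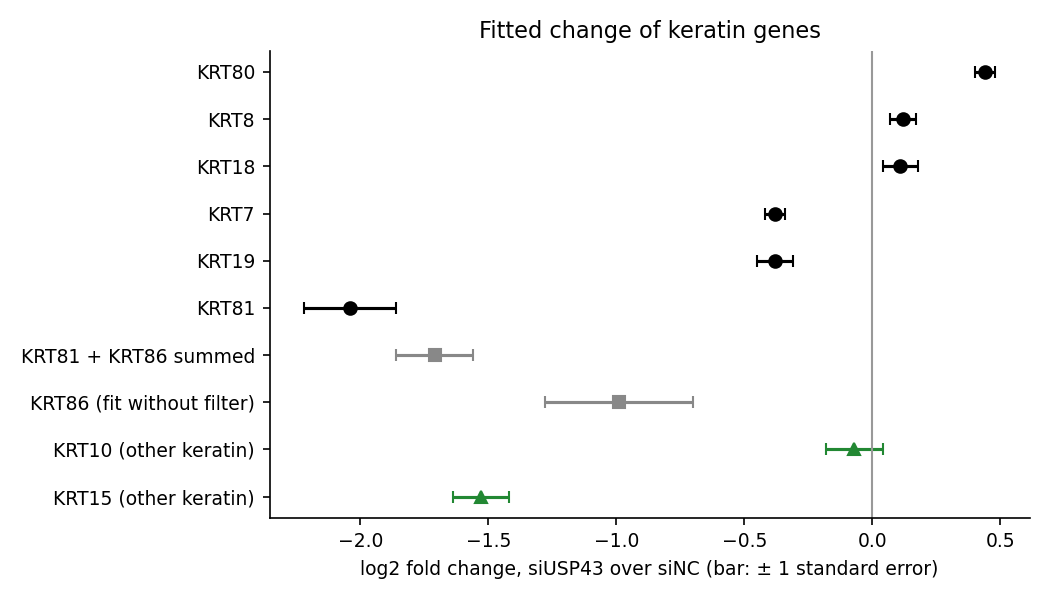
Fitted log2 fold change with 1 standard error for the 6 tested keratins (black circles), KRT86 without a filter and the paralog sum (grey squares), and the 2 other keratins tested (green triangles). KRT80 lies to the right of 0, KRT8 and KRT18 near it, and KRT81 and KRT15 farthest to the left.

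Of 45 other keratin genes, 20 of type II and 25 of type I, only KRT10 and KRT15 reached the filter. KRT15, a type I keratin of basal cells, stood at 1.79, 1.90 and 2.07 FPKM in siNC and 0.68, 0.70 and 0.63 in siUSP43. It fell to 0.345 of the control level (log2 fold change -1.53, SE 0.11, edgeR Benjamini-Hochberg adjusted p = 3.96e-07). It too passed the filter only through siNC. KRT10, the type I keratin of the upper epidermis, was at 4.88 ± 0.367 and 4.68 ± 0.65 FPKM (SD, n = 3 each) and did not pass, and it overlaps KRT10-AS1. KRT20, KRT6A and KRT16 were listed at 0 in every library, and KRT13 at 0.02 and 0.00667 FPKM on average.

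Outside the keratins 5 intermediate filament genes were tested, of which 4 rose and 0 fell, with a median log2 fold change of 0.30, where 28.0% of all genes tested rose and 28.1% fell. With 5 genes tested, nothing particular to this list is read from its count. VIM, which encodes vimentin of mesenchymal cells and many cultured lines, was the most abundant at 437.5 ± 12.0 FPKM in siNC and 419 ± 24.1 in siUSP43 (SD, n = 3 each) and did not pass. The nuclear lamin genes LMNB1, LMNA and LMNB2 rose by 0.52, 0.30 and 0.21 on the log2 scale. Of 20 tested genes listed for anchoring keratins at desmosomes and hemidesmosomes or binding them, 5 rose, 6 fell and 9 did not pass. Their median log2 fold change was -0.11. KRTCAP2, which did not pass, is listed by its name and is not known to do either. The 11 of 20 called are near the 56.1% called among all genes tested. The count that rose was 1 without siNC replicate 1, 3 without siNC replicate 2 or siNC replicate 3, and 2 without siUSP43 replicate 1. It was 6 without siUSP43 replicate 2 and 4 without siUSP43 replicate 3, so it changed with each library left out. PLEC, the plectin linker of filaments to junctions, rose by 0.15, but did not pass once siNC replicate 1 or siUSP43 replicate 1 was left out. ITGA6, the hemidesmosome integrin chain, fell by 0.40, while DSG2, a desmosomal cadherin, had a log2 fold change of -0.02 and CD151, a partner of that integrin, one of -0.04. CD151 and ITGA6 overlap other tested genes.

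Of 9 epithelial transcription factors tested, 2 rose and 5 fell, with a median log2 fold change of -0.24. For this list and the smaller ones that follow, the shares over all genes tested were 28.0% that rose, 28.1% that fell and 56.1% called either way, and with 3 to 9 genes tested nothing particular to a list is read from its count. TFAP2C and SP1, both known to act on keratin promoters, fell by 0.61 and 0.32, and KLF5 rose by 0.30, a call that ended without siUSP43 replicate 1. SOX9 had a log2 fold change of -0.04. Of 3 tested factors known to repress epithelial genes 2 fell, SNAI2 with -0.56 and FOXC2 with -0.60, while ZEB1 was at -0.07 and overlaps ZEB1-AS1. ZEB2 was below the filter, at 0.983 and 0.713 FPKM. Among 3 tested genes of squamous differentiation CSTB and S100A2 fell, with -0.55 and -0.25, and SFN was at 0.03. Of 6 tested adhesion and surface genes 0 rose and 3 fell, namely F11R with -0.82, EGFR with -0.55 and CD44 with -0.37, while CLDN1 was at 0.09. PI3 was below the filter at 0.77 and 0.417 FPKM.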

How the data were processed

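The deposited table gives raw read counts and FPKM per gene, per the file headers, made by the authors with cutadapt 2.6 and HISAT2 2.2.1 on GRCh38, per the submitters' processing notes. Which program counted reads, with which annotation, strand setting and read length, is not given in the sources used here. Exonic size as deposited (another unit) is in bases.

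Counts were fitted with edgeR 4.0.16 in R 4.3.3 (quasi-likelihood, TMM scaling, group as the only term) for the 11417 genes whose FPKM averaged 1 or more over the 6 libraries. Calls used a Benjamini-Hochberg adjusted p under 0.05. Keratins below that were compared by exact two-sided permutation of FPKM. DESeq2 1.42.0 and limma 3.58.1 on log2(FPKM + 1) and log2(FPKM + 0.1), 2 other scalings, 2 other filters, a block for replicate number, and fits leaving out single libraries were also run, and the paralog sum was chosen after seeing the data. The SE is the log2 fold change over the root of its F statistic.

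The members and lists were chosen with earlier results of these data known. Named genes were the 10 members, USP43, other keratins past the filter and the 4 of highest mean FPKM in each list. Lists without a tested gene are given as marker sums. Sequence comparisons used GENCODE release 29, which held 98.4% of tested identifiers. Principal transcripts were APPRIS principal with a CCDS entry, the longest coding sequence first and then the shortest mRNA. The compared sequences themselves and 1 marker gene are not reported here.

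Libraries of a group differed by more than counting noise (chi-square per degree of freedom 2.07 to 10.2). Tested on simulated data for the siUSP43 and siNC comparison of 11417 genes (5 draws, 200 changed), edgeR recovered 40.8% of genes changed 1.2-fold and 91.2% of those changed 1.5-fold. For 2-fold and 4-fold changes it recovered 96.4% and 99.2%, with 4.65% of calls false. The simulation changed only 200 genes and took their spread from a trend over expression level alone. In the data 56.1% of genes tested were called, so these rates need not hold for them. The labels name no molecular identifiers, so floors cover counting error only.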

Additional observations from a re-analysis of the deposited data

How the results depend on the processing

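KRT7, KRT19, KRT80 and KRT81 kept their direction and their call in all 14 alternatives, with log2 fold changes of -0.40 to -0.34, -0.41 to -0.33, 0.42 to 0.45 and -2.15 to -1.06 (for KRT81 the paralog sum stands in place of the stricter filter, which left it out). The count of keratins that rose was 2 in place of 1 with RLE size factors, library totals alone, no filter, DESeq2 and both limma fits, through KRT8, and 1 to 3 over the left-out libraries. The count that fell was 3 with each library left out, 4 with no filter, where KRT86 entered, and 2 with a mean of at least 5 FPKM, where KRT81 dropped out. A filter at a mean of 5 FPKM left fewer genes tested, and 1889 rose and 1892 fell, against 3198 and 3211. Leaving out a library gave 2718 to 3273 and 2710 to 3275. The FPKM differences of KRT86, KRT17 and KRT14, -0.28, -0.0833 and -0.0167, ran from -0.318 to -0.203, -0.128 to -0.0233 and -0.025 to -0.01 (exact permutation tests, none able to pass at these group sizes). Same-numbered libraries did not deviate together (correlations -0.034, -0.135 and -0.297, against -0.168 to 0.28 for differently numbered ones). Deviations from a mean of 3 libraries are tied to each other, so this cannot show whether the numbers pair the samples. With the replicate block 2775 genes rose and 2841 fell, and the keratin calls were the same, 1 that rose and 3 that fell. Among the 20 tested genes listed for anchoring or binding keratins, 5 rose and 6 fell. These counts were 2 and 4 with that block and 3 and 3 at a mean of 5 FPKM. The PLEC call ended with the block. Signs turned for genes that had not passed: KRT10 (0.03), SOX9 (0.00), DSG2 (0.08) and SFN (-0.04) without siUSP43 replicate 2, CD151 (0.03) without siUSP43 replicate 3 and DSG2 (0.01) without siNC replicate 1. Over the left-out libraries these genes ran from -0.13 to 0.03, -0.08 to 0.00, -0.12 to 0.08, -0.04 to 0.12 and, for CD151, -0.11 to 0.03. At 17 to 138 counts per library, KRT81 and KRT86 are limited by depth, and KRT5, KRT14 and KRT17 more so.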

Other observations

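Other genes of the hair keratin system, singled out after their values were seen, did not all move with KRT81 and KRT86. KRTAP2-3, a keratin-associated protein of the hair shaft, had 44, 40 and 52 counts in siNC and 111, 90 and 102 in siUSP43, and it rose 2.24-fold (log2 fold change 1.16, SE 0.16, edgeR Benjamini-Hochberg adjusted p = 8.46e-05). This call held in all 13 alternatives run for it, although close copies in the KRTAP2 family make the assignment of its reads uncertain. KRT34, a hair-type type I keratin below the filter, had 25, 9 and 15 counts in siNC and 29, 35 and 37 in siUSP43, with a log2 fold change of 1.06 (SE 0.31, edgeR Benjamini-Hochberg adjusted p = 0.00397) in the fit without a filter. For KRTAP2-3 that fit gave a far smaller edgeR Benjamini-Hochberg adjusted p than the main fit, 1.42e-08, so the KRT34 value is not on the main fit's footing. KRT83, the hair-type type II neighbour of KRT86, had 12, 6 and 8 counts in siNC and 7, 1 and 6 in siUSP43, and these ranges overlapped.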
